A study of Homo sapiens with 12 samples.

Results

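The pull-down peaks described here are the 48428 regions on chromosomes 1 to 22, of 51446 in the deposited list (94.1%), that a small molecule captured from HEK 293T genomic DNA that had been purified and annealed. They were taken by chromosome name alone, with no regard to their score. HEK 293T cells, derived from human embryonic kidney and expressing SV40 large T antigen, are known to have an abnormal set of chromosomes. The series holds 12 samples in 6 groups of 2: the pull-down from annealed DNA, its input DNA, and RNA from cells given DMSO for 3 h or 1 µM PDP, a compound known here by its code name, for 3, 24 or 72 h. All come from the same cell line with no genetic change named in the labels. The deposited list merges 2 source lists and every row carries a name from both. Whether a source list is 1 of the 2 pull-down libraries is not stated, and positions and scores are those of the merged list. Unless stated otherwise, the intervals below are exact 95% Poisson or binomial intervals that cover counting error alone. Reads per library, the settings of the peak caller and the number of copies of each chromosome region in these cells were not analysed here.

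G-quadruplexes are stacks of guanine tetrads that single DNA strands form where runs of guanine follow each other closely. Such runs are known to be common in GC-rich DNA, at gene starts and near chromosome ends. In annealed, protein-free DNA the fold depends on sequence and salt and no longer on chromatin, so a map of this kind is a map of what the DNA can form and the ligand can capture. A peak here was 402 to 722 bases wide with a median of 407. The score that the authors gave each peak, in a unit that is not stated, ran from 6.6 to 1538.4 with a median of 10.95 and quartiles of 9.1 and 14.2. The top decile by score began at 19.55.

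The sequence of the peaks could not be read, because no genome was used here, but RefSeq promoter windows on GRCh38.p14 give examples of gene starts with and without a peak. They were picked by score or by motif and do not stand for all peaks. Each window below is the 250 bases before a gene start, written 5′ to 3′ on the strand of the gene, with capitals for 4 runs of at least 3 guanines with loops of 1 to 7 bases, or for the same runs of cytosine, which put the guanines on the other strand. A peak wholly covered 18 RefSeq windows (which run 50 bases past the start), and 9 of these hold no such motif. The first 4 below have the highest peak scores among the covered windows whose symbol is in the RNA table, and all 4 hold the motif: VSTM2A (chr7:54545911-54546160, plus strand, score 34.6), PBX2, a homeodomain factor (chr6:32190203-32190452, minus strand, score 18), P3H3, a collagen prolyl hydroxylase (chr12:6828157-6828406, plus strand, score 16.65), and RNASEH2C, a subunit of ribonuclease H2 (chr11:65720799-65721048, minus strand, score 16.45).
VSTM2A: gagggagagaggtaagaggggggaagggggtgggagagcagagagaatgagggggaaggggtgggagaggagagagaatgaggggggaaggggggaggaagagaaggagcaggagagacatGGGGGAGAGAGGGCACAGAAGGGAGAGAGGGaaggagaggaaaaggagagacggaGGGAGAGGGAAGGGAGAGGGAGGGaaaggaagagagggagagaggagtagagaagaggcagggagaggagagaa
PBX2: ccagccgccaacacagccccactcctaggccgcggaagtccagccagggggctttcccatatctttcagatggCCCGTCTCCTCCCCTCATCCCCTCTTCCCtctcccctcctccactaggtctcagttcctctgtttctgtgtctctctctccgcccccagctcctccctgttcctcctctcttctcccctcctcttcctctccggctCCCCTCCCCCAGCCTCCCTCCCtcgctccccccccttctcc
P3H3: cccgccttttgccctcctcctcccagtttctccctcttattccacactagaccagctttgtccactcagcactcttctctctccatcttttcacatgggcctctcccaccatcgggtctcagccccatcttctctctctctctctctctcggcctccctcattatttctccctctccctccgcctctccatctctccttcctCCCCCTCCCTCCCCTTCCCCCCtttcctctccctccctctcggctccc
RNASEH2C: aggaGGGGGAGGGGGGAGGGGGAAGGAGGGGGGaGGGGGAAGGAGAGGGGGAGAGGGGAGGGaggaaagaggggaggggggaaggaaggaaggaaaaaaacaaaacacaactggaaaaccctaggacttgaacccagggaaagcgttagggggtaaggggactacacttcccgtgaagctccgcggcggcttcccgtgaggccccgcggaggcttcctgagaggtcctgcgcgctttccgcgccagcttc
In the order shown they have 55, 51, 22 and 57 bases in motifs and 1, 7, 5 and 12 CG pairs in the 250 bases printed.

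The 2 covered windows of highest score without the motif belong to LOC105372841 (chr21:45978255-45978504, plus strand, score 36.9) and LOC105377712 (chr5:169079634-169079883, plus strand, score 24.05), which are named by identifier alone.
LOC105372841: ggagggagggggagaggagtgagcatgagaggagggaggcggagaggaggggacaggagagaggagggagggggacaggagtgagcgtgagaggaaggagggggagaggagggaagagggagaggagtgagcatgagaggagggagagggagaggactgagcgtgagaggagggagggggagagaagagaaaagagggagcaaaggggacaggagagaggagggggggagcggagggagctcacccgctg
LOC105377712: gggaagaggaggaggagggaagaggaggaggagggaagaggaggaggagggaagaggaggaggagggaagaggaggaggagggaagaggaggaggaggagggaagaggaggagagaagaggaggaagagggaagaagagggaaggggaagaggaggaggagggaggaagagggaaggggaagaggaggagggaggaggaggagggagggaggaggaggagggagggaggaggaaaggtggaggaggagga
They hold 5 and 0 CG pairs.

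The next 3 windows lie in the 3 bins of highest peak density and had no peak: MNX1, a homeodomain factor of motor neurons (chr7:157010664-157010913, minus strand), WSB2, a substrate receptor of a ubiquitin ligase (chr12:118061180-118061429, minus strand), and ULK1, the kinase that starts autophagy (chr12:131894372-131894621, plus strand). In each bin the window with most bases in motifs was taken, among genes of at least 1 FPKM (a length-scaled RNA level) under DMSO.
MNX1: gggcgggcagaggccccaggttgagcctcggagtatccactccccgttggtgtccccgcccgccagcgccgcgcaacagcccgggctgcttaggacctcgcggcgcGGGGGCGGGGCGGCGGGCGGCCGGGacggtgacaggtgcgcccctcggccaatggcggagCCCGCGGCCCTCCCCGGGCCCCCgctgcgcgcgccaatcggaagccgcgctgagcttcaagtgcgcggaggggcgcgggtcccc
WSB2: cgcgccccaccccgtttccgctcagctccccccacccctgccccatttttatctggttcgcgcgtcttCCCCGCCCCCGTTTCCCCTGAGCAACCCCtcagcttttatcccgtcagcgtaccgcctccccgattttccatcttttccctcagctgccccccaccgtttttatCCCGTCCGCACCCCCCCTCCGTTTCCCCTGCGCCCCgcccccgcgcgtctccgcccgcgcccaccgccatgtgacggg
ULK1: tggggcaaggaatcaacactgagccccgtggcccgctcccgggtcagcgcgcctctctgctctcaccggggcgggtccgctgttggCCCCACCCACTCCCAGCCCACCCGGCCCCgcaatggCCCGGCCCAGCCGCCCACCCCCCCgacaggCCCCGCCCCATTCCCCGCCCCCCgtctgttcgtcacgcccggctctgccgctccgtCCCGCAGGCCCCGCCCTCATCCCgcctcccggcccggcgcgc
They have 48, 65 and 99 bases in motifs and 36, 27 and 28 CG pairs. A match to the letters is a description of the sequence and shows neither a folded structure nor a captured one.

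The density of peaks differed about 2.2-fold between the densest and the sparsest autosome. This held with and without the longest stretch lacking loci, though between different chromosomes. Over 2873.84 Mb there were 16.9 peaks per Mb (16.7 to 17), beside 19.2 gene IDs per Mb (55061 in all). With length counted from base 1, which includes long stretches that hold no gene locus and next to no peak, chromosome 20 came first with 1487 peaks, or 23.1 per Mb (22 to 24.3), followed by chromosome 21 with 22.9, 17 with 22.5, 6 with 21.1 and 1 with 21. Chromosomes 22 (20.6), 19 (20.4) and 12 (19.4) came next. At the other end stood chromosome 13 with 1201 peaks, or 10.5 per Mb (9.92 to 11.1), then 18 with 11.6, 4 with 11.7, 15 with 13 and 8 with 13.6. In this order the intervals of 20 of the 21 neighbouring pairs overlapped. Those of chromosomes 15 (12.3 to 13.7) and 4 (11.2 to 12.2) did not. The remaining chromosomes lay between 14.5 (chromosome 9) and 18.5 per Mb (chromosome 10). Without the longest stretch lacking loci, chosen as an alternative after the data were seen, chromosomes 22 (26.1 per Mb, 24.5 to 27.7) and 21 (25.6, 24.1 to 27.2) stood before 20 (24, 22.7 to 25.2). At the low end chromosome 4 (11.8, 11.3 to 12.3) then stood below 13 (12.5, 11.8 to 13.2) and 18 (12.5, 11.7 to 13.3). Chromosome 15 went from 13 to 16.1 per Mb. The first and last ranks thus depend on how length is counted.

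**Figure D1:**
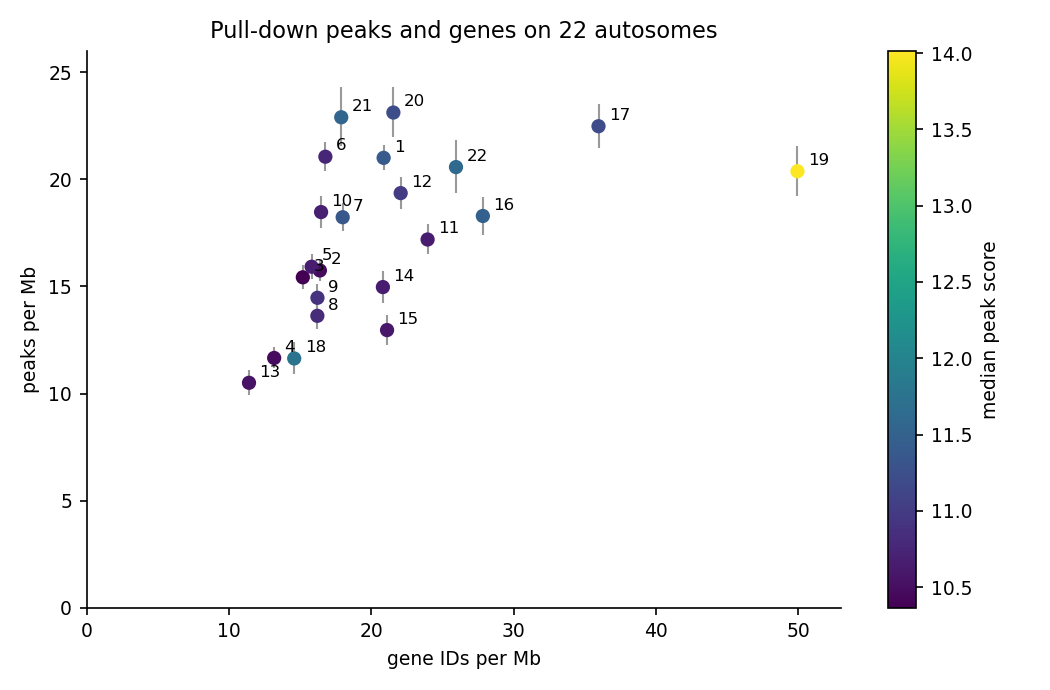
Peaks per Mb (vertical axis, with exact 95% Poisson intervals as bars) against gene IDs per Mb (horizontal axis) for 22 autosomes, labelled by number and coloured by median peak score. Chromosome 19 stands far to the right with 49.9 genes per Mb and the highest median score, at a peak density of 20.4 per Mb.

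Gene density and peak density went together over the autosomes. Spearman's rho was 0.659 and Pearson's r 0.515 over 22 chromosomes, and without chromosome 19 they were 0.661 and 0.595. Without the stretches lacking loci rho was 0.728. These are descriptions of the sites of 1 genome. Chromosome 19, known for its zinc finger gene clusters and its high GC content, held 49.9 genes per Mb, more than any other autosome, and ranked 7th in peaks. Chromosomes 15 (19th in peaks, 8th in genes), 21 (2nd and 12th) and 6 (4th and 13th) had ranks further apart. It had 0.408 peaks per gene, the fewest of the 22. Chromosomes 15 (0.614), 17 (0.625) and 16 (0.657) followed, and 21 (1.28) and 6 (1.26) had the most. The peaks of chromosome 19 had the highest median score of any autosome, 14 (quartiles 10.2 and 20.9), and 347 of its 1194 peaks (29.1%, 26.5 to 31.7) were in the top decile by score. Chromosome 21 followed in that share with 16.5%. Chromosome 3 had the lowest median score (10.4) and the lowest share (5.36%, 4.59 to 6.22). Chromosome 19 thus held fewer peaks for its genes than the other autosomes, and its peaks scored higher.

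The names of the peaks carry numbers from the 2 source lists, and by the highest of these numbers the order of chromosomes was a different one. Every merged peak carries a name from each source list, made of the chromosome and a number that rises as the score falls (rho with score between -0.950 and -0.824 over chromosomes and lists). The highest number that survives on a chromosome is a lower limit for what was numbered there. What was numbered is not stated. These highest numbers summed to 235189 and 205320 over the autosomes, and the merged peaks came to 20.6% and 23.6% of these sums. On chromosome 19 the highest numbers were 10944 and 12307, or 187 and 210 per Mb, first of all autosomes in both lists. Chromosome 17 came second with 142 and 148 per Mb, and chromosome 13 last with 46.7 and 32.2. The rho of highest number per Mb with genes per Mb was 0.799 in the first list and 0.910 in the second. The merged list, with a rho of 0.659, followed gene density less closely than these numbers.

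Set against these numbers, merged peaks were fewest on the 2 chromosomes with most genes per Mb. On chromosome 19 they came to 10.9% and 9.70% of the highest number, and on chromosome 17 to 15.9% and 15.2%. On chromosome 4 they came to 23% and 35.7%, and on chromosome 8 to 23.1% and 32.0%. The rho of this share with genes per Mb was -0.552 and -0.912. The lists also differed from each other on chromosome 15, where merged peaks came to 26.6% of the first number and 19.8% of the second (4968 and 6684). Of the lowest-numbered decile, 48.4% and 47.0% of the numbers had a merged peak on chromosome 19, and 77.9% and 80.2% on chromosome 8. What became of the other numbers is not stated.

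**Figure D2:**
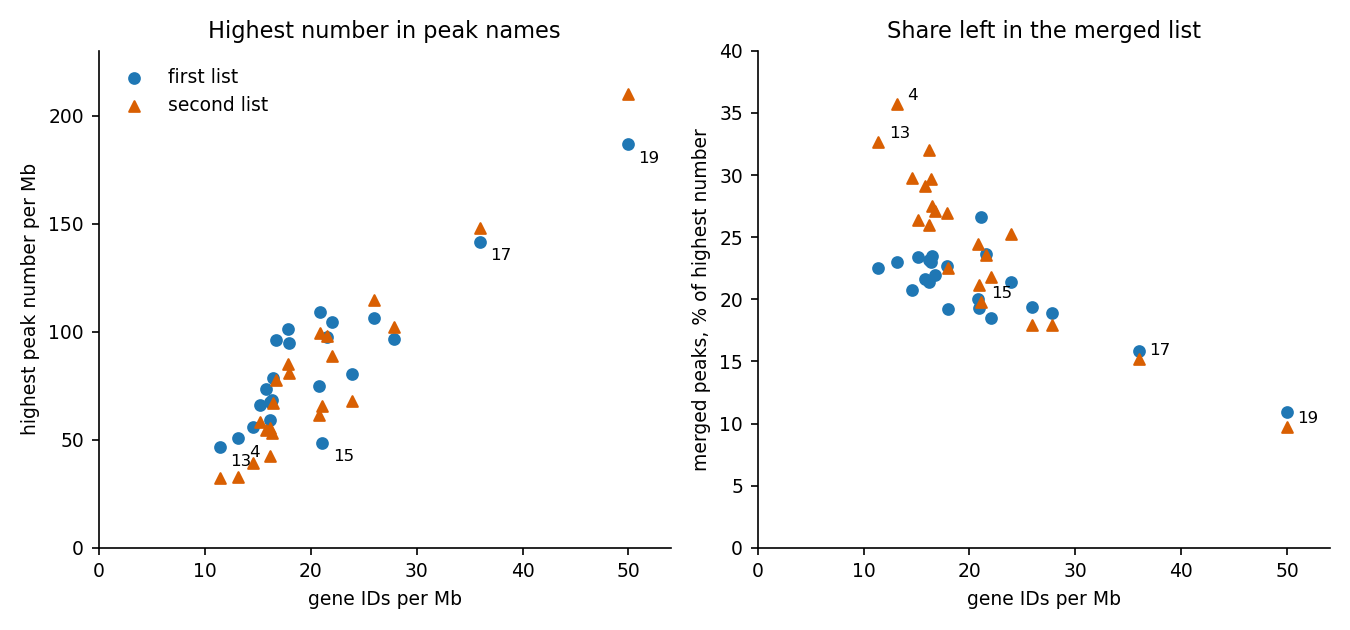
Left, the highest number in the peak names of each chromosome per Mb, and right, the merged peaks as a percentage of that number, both against gene IDs per Mb. Circles stand for the first source list and triangles for the second, with 22 autosomes each. Chromosome 19 is highest on the left (187 and 210 per Mb) and lowest on the right (10.9% and 9.70%).

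The arms of a chromosome differed by 1.23-fold at the median, and chromosome 18 stood out with a difference as large as that between chromosomes. No centromere positions were used, so the longest stretch of each chromosome without a gene locus was taken as the break and left out of both arms. Both arms could be described on 17 chromosomes, and chromosomes 13, 14, 15, 21 and 22 were described by their long arm. In 11 of the 17 pairs the intervals of the arms did not overlap, and the long arm was the denser in 9 of these. The exceptions were chromosome 1, with 25.2 per Mb on the short arm and 20.4 on the long arm, and chromosome 3, with 18.5 and 13.1. The largest contrast was on chromosome 18, with 6.2 per Mb (5.01 to 7.58) on the short arm and 14.1 (13.2 to 15.1) on the long arm, 2.28-fold. Chromosome 9 followed with 10.2 and 20.1 per Mb (1.96-fold) and chromosome 8 with 9.36 and 15.8 (1.69-fold). Genes did not follow in each case. The short arm of chromosome 18 had 23.6 genes per Mb and the long arm 13.6, and on chromosome 8 the values were 20.2 and 14.8. Of the 11 pairs, the denser arm also had more genes per Mb in 6. The densest of the 39 arms was the long arm of chromosome 20 (26.8 per Mb, 25.1 to 28.5), followed by that of 22 (26.1) and of 21 (25.6), and the sparsest was the short arm of 18. Within chromosome 19 the short arm had fewer peaks (19 per Mb against 23.6) at a higher median score (16.2 against 13.2).

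In bins of 5 Mb the spread was wider still. The 557 bins held from 2 to 241 peaks, with a median of 16.6 per Mb and quartiles of 10.2 and 23.4. The variance of the counts was 23.3 times their mean, and 36.1 times for genes. The 56 densest bins held 20.2% of the peaks. Neighbouring bins resembled each other (rho 0.583 over 532 pairs), so bins are not independent. Over bins, peaks per Mb and genes per Mb had a rho of 0.517 (r 0.405), and it was 0.630 when genes of at least 1 FPKM under DMSO were counted. Within single chromosomes the rho ran from -0.190 on chromosome 22 (8 bins) to 0.882 on chromosome 20 (13 bins), with a median of 0.430. It was 0.129 over the 48 bins of chromosome 1. Of the densest decile of bins by peaks and the densest decile by genes, 11 bins were shared, 19.6% of each. Chromosome 1 had 11 of its 48 bins among the densest decile by peaks. Chromosome 19 had 1 of 12, although 10 of its 12 bins were in the densest decile by genes. Chromosomes 2, 13 and 14 had none.

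**Figure D3:**
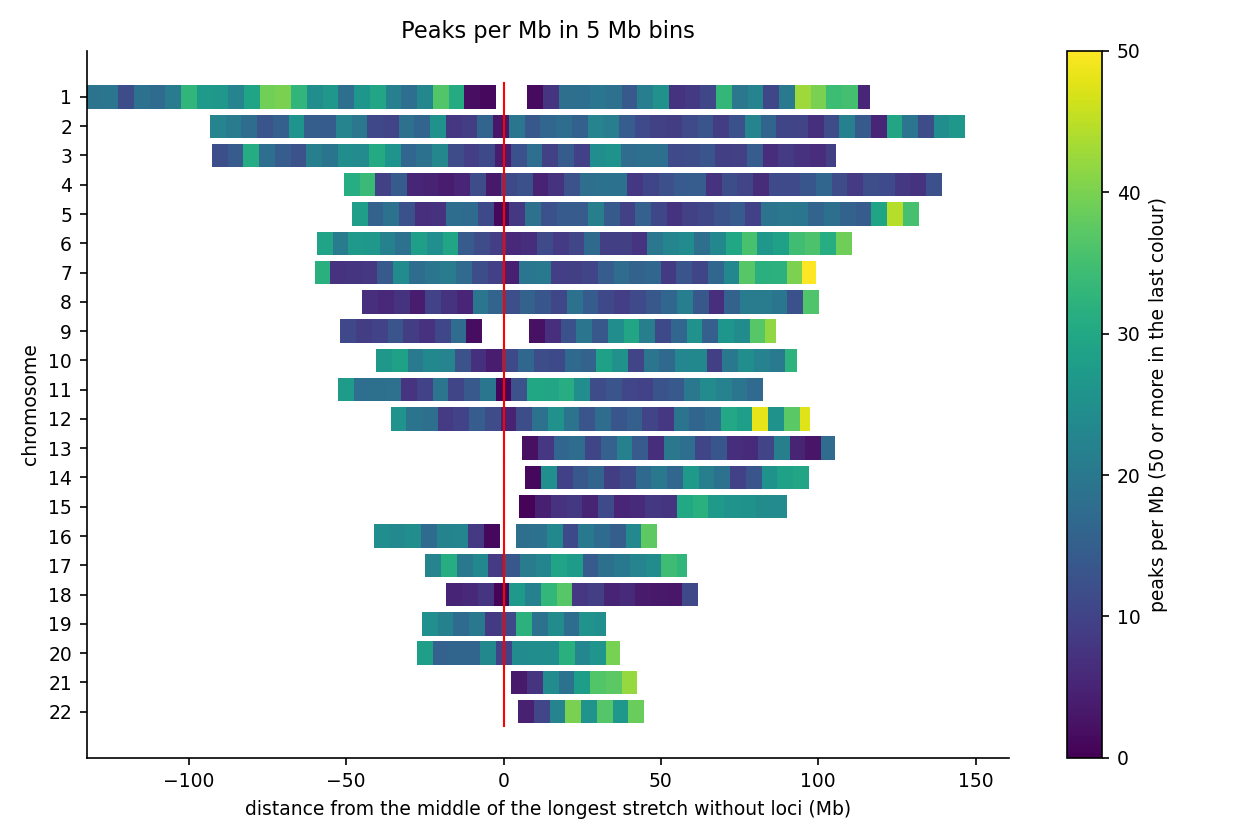
Peaks per Mb in 5 Mb bins (colour, with 50 or more in the last colour) along 22 autosomes, drawn by distance in Mb from the middle of the longest stretch without gene loci (red line). Bright bins gather towards chromosome ends, and chromosomes 15 and 18 show blocks with abrupt edges.

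Most chromosome ends were dense, and most bins at the longest stretch without loci were sparse. The last bins of the 22 autosomes had a median of 32.5 per Mb, against 16.2 for the other bins, and 16 of the 22 lay in the densest quartile of bins. They ran from 5.33 per Mb on chromosome 1 to 50.4 on chromosome 7, and those of chromosomes 3 (9.29), 18 (10.8) and 4 (12.2) were also sparse. The first bins, on the 17 chromosomes where they hold a peak or gene, had a median of 24.8 per Mb, with 10 in the densest quartile and 2 in the sparsest (chromosome 18 with 5 and chromosome 8 with 6.8). The 36 bins that touch the longest stretch without loci had a median of 4.5 per Mb, with that stretch counted in their length. Of these bins 27 lay in the sparsest quartile. On chromosomes 13, 14, 15, 21 and 22 that stretch lies at the start of the chromosome.

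Along some chromosomes the density differed between neighbouring stretches of 20 Mb, in some places by more than gene density did. With 20 Mb on each side of every boundary between bins (382 boundaries, chosen as a measure after the data were seen), 13 chromosomes had a boundary with at least a 2-fold change, and on 11 of these the 4 bins on one side all lay above the 4 on the other. Genes changed in the same direction at 10 of the 13 and in the other at 3. The largest change was on chromosome 18 at 20 Mb, from 4.75 per Mb (3.84 to 5.81) to 29.6 (27.3 to 32.1), a 6.23-fold rise (5.01 to 7.82) while genes went from 18.1 to 13.4 per Mb. That boundary lies in the stretch without loci (15.3 to 20.9 Mb), whose 4 windows without a peak lower both densities on the first side. Between 0 and 15 Mb there were 6.2 peaks and 23.5 genes per Mb, so that the dense stretch described next was 4.99-fold above it. The next were a 4.63-fold fall on chromosome 4 at 20 Mb (genes 2.07-fold lower) and a 4.21-fold rise on chromosome 15 at 65 Mb (genes 1.35-fold higher). Chromosomes 6 at 50 Mb (a 2.96-fold fall, with genes 3.54-fold lower) and 10 at 25 Mb (2.75-fold) followed. On chromosome 10 genes stood at 15.7 and 16.1 per Mb on the 2 sides.

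In windows of 1 Mb the edges on chromosomes 18 and 15 were sharp. On chromosome 18 the 5 windows before 41 Mb held between 26 and 49 peaks each and the 5 after it between 2 and 3, with 176 and 13 peaks in all and 35 and 32 genes. From 21 to 41 Mb there were 619 peaks, 30.9 per Mb (28.6 to 33.5), and from 41 to 80 Mb there were 214, 5.49 per Mb (4.78 to 6.27), with 13.6 and 13.5 genes per Mb. The part of the long arm beyond 41 Mb was thus as sparse as the short arm (6.2 per Mb), and the denser long arm rested on these 20 Mb. The median score was 12.2 in the dense stretch and 10.8 beyond it. On chromosome 15 the windows from 20 to 66 Mb had a median of 7 peaks and those from 66 to 101 Mb a median of 28. These stretches held 7.17 (6.42 to 7.99) and 27.1 peaks per Mb (25.4 to 28.9), while genes stood at 27 and 24.7 per Mb, and expressed genes at 5.02 and 5.80 per Mb. The median scores were 10.4 and 10.6. On chromosome 4 the first 9 windows held 21 to 54 peaks each and the 11 that follow, up to 20 Mb, held 6 to 20, with 10 to 41 and 1 to 56 genes per window. The edges were placed after the values were seen, and the stretches have no test. Copies of these regions in the cells were not analysed here, and their part in the edges was not tested.

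**Figure D4:**
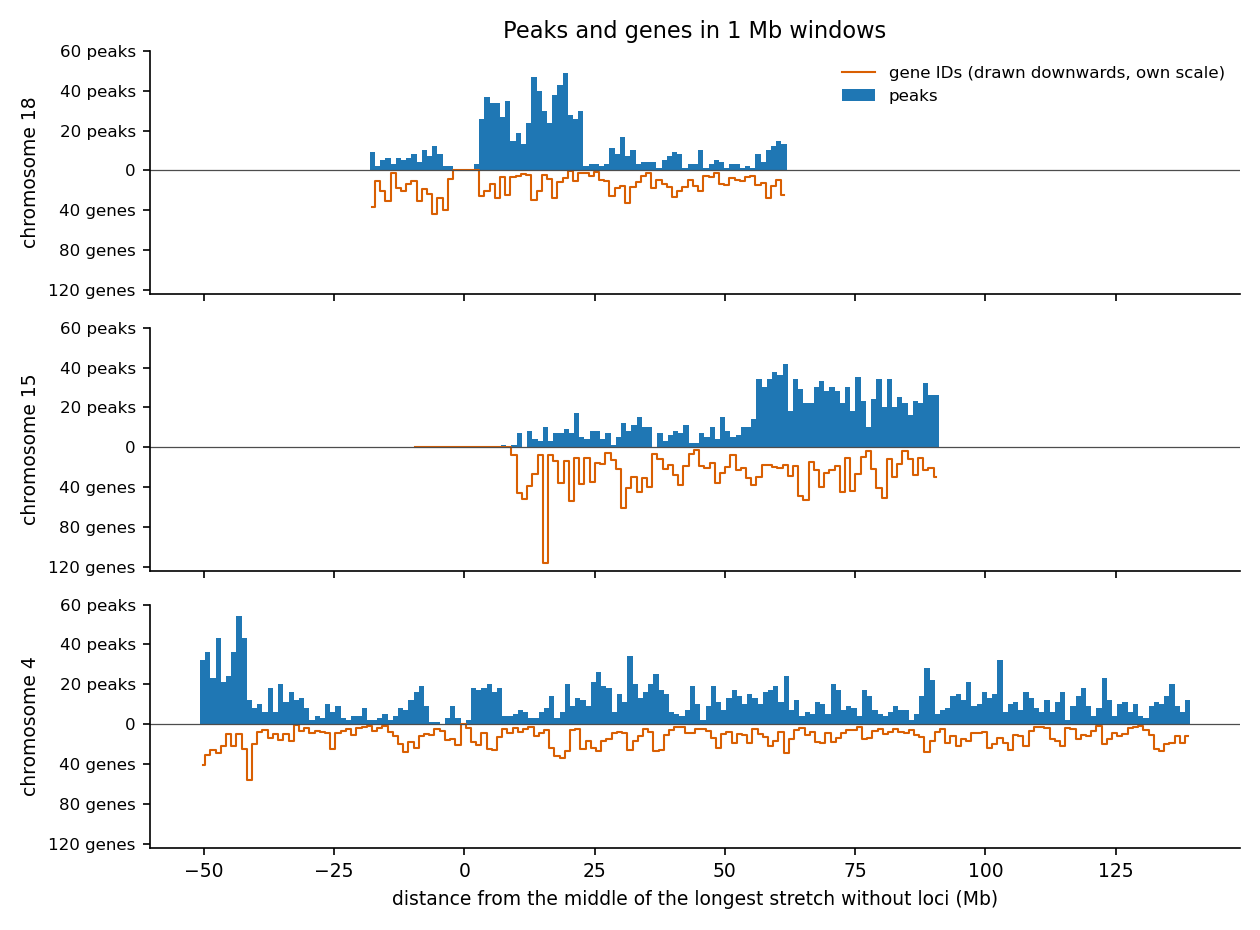
Peaks (blue bars, upwards) and gene IDs (orange line, downwards on a scale of its own) in 1 Mb windows of chromosomes 18, 15 and 4, by distance in Mb from the middle of the longest stretch without loci. Chromosome 18 has a block of 13 to 49 peaks per window between the short arm (at most 12 per window, and 4 windows with none at the stretch without loci) and windows of 1 to 17, and chromosome 15 changes from a median of 7 to a median of 28 peaks, with no such edge in the gene line.

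The densest bins lay near chromosome ends and on a few other stretches. The genes named in them are those with most peaks among genes alone in their locus. The runs of 8 peaks at ITGB2 and of 7 at JAK1 and RAVER2, described below, also lie in such bins and were not ranked. First was the end of chromosome 7, from 155 to 159.3 Mb, with 217 peaks (50.4 per Mb, 43.9 to 57.6) beside 73 genes and a median score of 14.6. There DNAJB6, a chaperone of the DNAJ family, held 8 peaks in 82.1 kb, and NCAPG2, a condensin II subunit, held 5. On chromosome 12 the bin from 115 to 120 Mb had 241 peaks (48.2 per Mb), 3 of them in SUDS3, part of the Sin3 repressor complex, and 2 in TESC. The last bin of that chromosome, from 130 Mb, had 47.6 per Mb, with 3 peaks in the noncoding LINC01257 and 1 in POLE, the catalytic subunit of DNA polymerase epsilon. The bin from 170 to 175 Mb of chromosome 5 had 44.4 per Mb, and SH3PXD2B, a podosome adaptor, held 9 peaks and FBXW11, a ubiquitin ligase subunit, held 6.

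Chromosome 1 had 3 of the 10 densest bins. That from 225 to 230 Mb had 42.6 per Mb, with 19 peaks in DNAH14, a dynein heavy chain gene of 503 kb, and 6 in WNT3A, a Wnt ligand of 54.2 kb (111 per Mb, 40.6 to 241), whose peaks had a median score of 25.9. The bins from 230 and from 60 Mb had 40 per Mb each. Among genes alone in their locus, PGBD5 (4 peaks), which derives from a transposase, TARBP1 (3), UBE2U (6), a ubiquitin-conjugating enzyme, and C1orf87 (5) led there. The last bin kept of chromosome 21, from 40 to 45 Mb, had 42 per Mb, with 4 peaks in the protease gene TMPRSS2 and 3 in PFKL, a phosphofructokinase gene of 27.3 kb. On chromosome 9 the last bin had 41.7 per Mb, with 7 peaks in EXD3 and 5 in the potassium channel gene KCNT1. The bin of chromosome 7 from 150 Mb had 40.2 per Mb, with 4 peaks in AOC1, which encodes diamine oxidase, and 3 in AGAP3. Gene density ranked these 10 bins anywhere from 24th to 302nd.

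The 5 sparsest bins with at least 10 genes all touched a locus-free stretch, as did 27 of the 140 bins of the sparsest quartile. The bin of chromosome 11 from 50 to 55 Mb held 3 peaks beside 23 genes, those of chromosome 16 from 35 Mb and chromosome 14 from 15 Mb held 5 each beside 77 and 83 genes, that of chromosome 1 from 140 Mb held 7 beside 59, and that of chromosome 9 from 40 Mb held 8 beside 93. Between 0 and 6 genes per bin reached 1 FPKM there. With the bin of chromosome 9 from 60 Mb (11 peaks, 106 genes), 4 of these were also those with the fewest peaks per gene, from 0.0602 to 0.119. Most peaks per gene were found on chromosome 6 from 160 Mb (155 peaks, 40 genes, 3.88 per gene). The bins of chromosome 5 from 165 Mb (3.17), chromosome 1 from 55 Mb (3.16), chromosome 18 from 35 Mb (3.07) and the last bin of chromosome 7 (2.97) followed.

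The gene with most peaks on each autosome was mostly a long one. Among genes alone in their locus, 2596 of 13598 with a RefSeq name held a peak. The leading loci ran from 100.1 to 1194 kb and held 5 to 20 peaks. They were chosen for their number of peaks, so their densities are given as a description. AUTS2 on chromosome 7 had most with 20, at 16.7 per Mb (10.2 to 25.9). DNAH14 had 19, the procollagen protease gene ADAMTS2 on chromosome 5 and WSCD1 on chromosome 17 had 16 each, and the calcium channel gene CACNA1A on chromosome 19 and the exchange factor gene VAV2 on chromosome 9 had 14 each. SMOC2 on chromosome 6 had 13 and EXT1, a heparan sulfate polymerase gene on chromosome 8, had 12. The highest density among them was that of SCNN1B, a subunit of the epithelial sodium channel, on chromosome 16 (8 peaks, 77.6 per Mb, 33.5 to 153). ADAMTS2 (68.2 per Mb), the cadherin gene CDH22 on chromosome 20 (9 peaks, 66.8 per Mb) and VAV2 (60.7 per Mb) came next. DYSF, which encodes dysferlin, and CUBN, which encodes cubilin, led chromosomes 2 and 10 with 11 each. PPP2R2C and SV2B led chromosomes 4 and 15 with 10 each, and ETV6, a transcription factor gene, led chromosome 12 with 9, as did the noncoding LL22NC03-86D4.1 on chromosome 22. MGLL (chromosome 3) and ABCC4 (13) had 8, SAMD4A (14) had 7, LINC00159 (21) and the kinase gene ROCK1 (18) had 6, and QSER1 (11) had 5. Under DMSO, LINC00159 and LL22NC03-86D4.1 were listed at 0 FPKM, and QSER1 was highest at 32.0 FPKM.

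Clusters of related genes lay on both sides of their chromosomes, as windows of 1 Mb did. Of 35 clusters (79.9 kb to 5.16 Mb long, median 0.548 Mb), 4 (11.4%) had an interval above the density of their chromosome, 8 (22.9%) below it and 23 (65.7%) held it. Of all 2730 windows of 1 Mb, 20.2% lay above, 20.8% below and 59.0% held it, with narrower intervals since most clusters are shorter. The kallikrein protease cluster (KLK) of chromosome 19 had 13 peaks in 265 kb, or 49 per Mb (26.1 to 83.9), and the CEACAM adhesion genes of the same chromosome 36.1 (25.8 to 49.2). The class II end of the HLA cluster on chromosome 6 had 35.5 per Mb (23 to 52.5), and the keratin genes of chromosome 17 had 35 (24.4 to 48.7). Below their chromosomes stood the olfactory receptor genes of chromosome 11 with 57 peaks over 160 genes (11.1 per Mb, 8.37 to 14.3) and the beta-defensin genes of chromosome 8 (3.33). The late cornified envelope genes of chromosome 1 (3.00), the UGT2 glucuronosyltransferases of chromosome 4 (2.62) and the immunoglobulin kappa variable genes of chromosome 2 (2.10) were also below. So were the GABA receptor genes of chromosome 4 (0.719) and of chromosome 15 (5.01). TRIM genes of chromosome 11 had no peak in 353 kb, which allows up to 10.5 per Mb. The zinc finger cluster at the end of chromosome 19 (23.4), the histone genes of chromosome 6 (21.2), the protocadherins of chromosome 5 (15.1) and all 4 HOX clusters (8.75 to 20.1) had intervals that held their chromosome. Reads of near-identical family members are hard to place, and how such reads were treated is not given in the sources used here.

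Dense stretches also held higher scores and more expressed genes. By quartiles of bins from sparse to dense, peaks per Mb were 6.95, 13.2, 19.6 and 29.8 and genes per Mb were 13.5, 15.4, 22.6 and 27.2. The median score was 10.4, 10.3, 10.7 and 11.6, and the share of peaks in the top decile by score was 5.96%, 5.42%, 8.4% and 14.1%. Over bins, the rho of peaks per Mb with median score was 0.426, and of genes per Mb with median score 0.386. The share of gene IDs of at least 1 FPKM under DMSO was 14.8%, 20%, 25.6% and 28.4%. Sorted by genes instead, peaks per Mb were 10.5, 16.2, 19.9 and 22.9, and peaks per gene were 1.20, 1.13, 1.02 and 0.630. Each density was higher where the other was, and the one used for sorting spans the wider range by construction.

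Peaks lay inside gene loci slightly more often than the bases do. Without the longest stretch lacking loci, 58.5% of the peaks (58.1 to 59.0) had their centre in a locus, and loci covered 56.6% of the bases. The share was above the cover on 15 of 22 chromosomes. On 8 the interval lay above the cover, and on chromosome 1 (57.1%, 55.7 to 58.4, cover 58.6%) it lay below. The widest gap was on chromosome 21, with 59.0% (56.0 to 62.0) and a cover of 48.7%, followed by chromosome 4 (56.6%, cover 50.9%) and chromosome 9 (55.4%, cover 50.1%). With the stretches counted as length, the cover was 53.4% and the share lay above it on 21 chromosomes.

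At gene starts themselves peaks were rare. Of 33558 RefSeq promoter windows of 300 bases on 21 autosomes (those of chromosome 8 were not used), 64 (0.191%, 0.147 to 0.243) were overlapped over at least 150 bases by a peak. The density of the bin around each window would give 0.903%. The motif described above was in 24.9% of the windows and in 21 of the 64. On chromosome 19 the motif was in 32.6% of 1903 windows, and 1 window had a peak (0.0525%, 0.00133 to 0.292), that of MEIS3, a homeodomain factor (score 47.8). On chromosome 17, with a motif in 30.2%, none of 1635 had one (upper limit 0.225%). The windows with a peak and a motif had a median of 11 CG pairs (quartiles 6 and 18), and the 8288 windows with a motif and no overlap had 28.5 (18 and 37). The median GC content was 64.3% and 70%. By expression under DMSO, 22 of 13417 windows of genes of at least 1 FPKM (0.164%, 0.103 to 0.248) and 12 of 7840 of genes below it (0.153%, 0.0791 to 0.267) had a peak, with intervals that overlap. Counting any overlap, the shares were 0.402% (54 windows) and 0.714% (56 windows).

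The low density was confined to the bases next to a start. Within 0.25 kb of the nearest start there were 5.49 peaks per Mb (4.37 to 6.81), from 0.25 to 0.5 kb 17.3, from 0.5 to 1 kb 24.1 and from 1 to 2 kb 24.9 (23.5 to 26.3). From there the density fell to 21 at 5 to 10 kb, 19.8 at 20 to 50 kb and 12.6 (12.3 to 12.8) beyond 100 kb. Starts were those of RefSeq, and 74.4% of 5406 compared starts lay within 300 bases of the end of a locus in the RNA table. How GC content bears on library yield or on peak calling was not tested.

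Neighbouring peaks kept a distance from each other. The median distance between centres was 30.2 kb (quartiles 13 and 66.2), the mean 57.8 kb and the smallest 691 bases. A reference was computed from the density of each 5 Mb bin alone, as if peaks in it had no further order. By this reference 2.18% of steps would be at most 1 kb, and 0.310% were. In classes of 1 kb the ratio of observed to reference steps was 0.886 from 1 to 2 kb and between 0.751 and 0.805 from 2 to 5 kb. It went from 0.805 (0.749 to 0.864) at 4 to 5 kb to 1.34 (1.27 to 1.42) at 5 to 6 kb, with 767 and 1246 steps. From 6 to 7 kb it was 1.37, and it fell slowly to 1.04 at 25 to 26 kb and 1.01 at 29 to 30 kb. By this reference, steps were under-represented below 5 kb and over-represented from there to about 25 kb. Shares of steps have a fixed sum, so a deficit below 5 kb raises the share of longer steps. The reference also leaves out uneven density within a bin. No preferred spacing can therefore be read from the excess. The settings of the peak caller can set how close 2 peaks may lie, and their part in the edge at 5 kb was not tested.

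**Figure D5:**
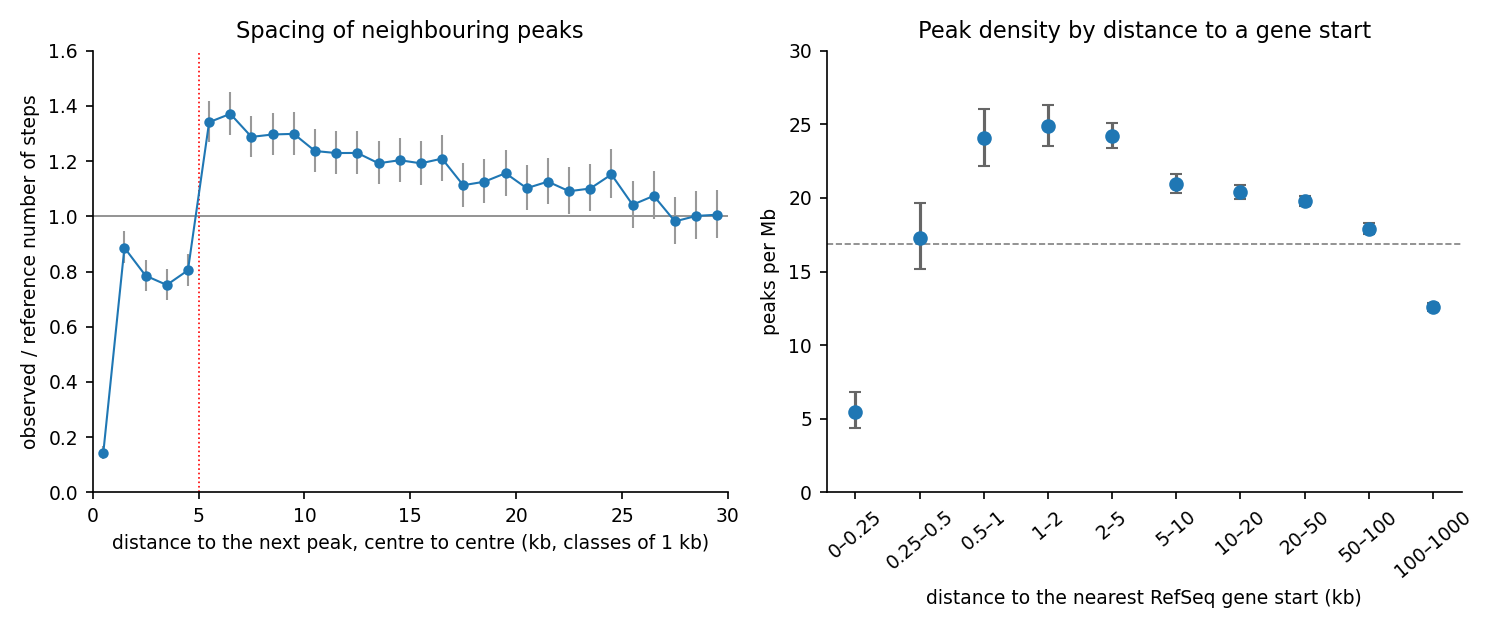
Left, observed over reference number of steps between neighbouring peaks in classes of 1 kb, with exact 95% Poisson intervals and a dotted line at 5 kb. Right, peaks per Mb by distance to the nearest RefSeq gene start, with the same kind of interval and the autosomal mean as a dashed line. The left panel goes from 0.805 to 1.34 at 5 kb, and the right one from 5.49 per Mb next to a start to 24.9 at 1 to 2 kb.

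Runs of close peaks were few, and most lay in dense bins, where short steps are more frequent by construction. With steps of at most 10 kb, 33.6% of peaks had a neighbour and 92 runs held 5 or more, with 500 peaks (1.03%). Of these runs 72 lay in the densest quartile of bins, which held 20440 of the 48067 peaks in bins. Chromosome 1 had 13 of the runs and chromosome 7 had 12, and chromosomes 13, 15, 18 and 19 had none. The longest had 9 peaks, on chromosome 12 from 53773553 to 53824796 (51.2 kb, at RN7SKP289) and on chromosome 7 from 153059363 to 153112114 (52.8 kb, in no locus). Runs of 8 peaks lay at ITGB2, an integrin gene, on chromosome 21 (44885413 to 44925626) and at ZDHHC14, a palmitoyltransferase gene, on chromosome 6 (157621958 to 157670776). A run of 7 lay at JAK1, a cytokine receptor kinase gene, and RAVER2 on chromosome 1 (64885378 to 64919394). The median score was 11.2 for peaks with a neighbour and 10.8 for peaks alone.

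Genes in dense bins were called changed between PDP and control about as often as all genes, with a slightly higher share at 72 h. A call is a q-value under 0.05 in the authors' deposited table, with FPKM values pooled over replicates. All 3 time points share the DMSO control of 3 h, so at 24 and 72 h PDP and time cannot be told apart. At 24 h 17.5% of all tested genes were called (9.21% higher, 8.29% lower), and by quartile of bins from sparse to dense 17.2%, 16.9%, 17.8% and 17.7% (16.7 to 18.6 in the last). At 72 h 31.8% of all tested genes were called (19% higher, 12.8% lower), and by quartile 30.5%, 30.7%, 30.4% and 33.4% (32.2 to 34.6 in the last). The densest quartile was 2.85 percentage points above the sparsest (0.313 to 5.38, by a normal approximation), although the interval of the sparsest (28.3 to 32.8) overlaps its own. The densest quartile had 20.1% higher and 13.3% lower, against 18.9% and 11.7% in the sparsest. Among gene IDs of at least 1 FPKM under DMSO, the median was 14.5 FPKM in the densest and 9.35 in the sparsest quartile. The part of expression level in the calls was not tested. At 3 h 0.115% of all tested genes were called (0.108% higher, 0.00678% lower), and by quartile 1, 3, 6 and 6 genes. Whether the 2 replicates of a group were grown apart is not in the labels, and neighbouring genes can move together, which these binomial intervals leave out of account.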

How the data were processed

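Groups were taken from the labels. Per the submitters' processing notes the tools were Bowtie2 2.2.9, Cufflinks 2.2.1, HISAT2 2.0.5, HOMER 4.9.1, Picard, SAMtools 1.3.1 and Trim Galore 0.4.4 on GRCh38.p7, and their settings are not given in the sources used here. No unit is stated for the score of each peak as deposited. The authors' deposited FPKM values are pooled over replicates, and the deposited q-value comes from the authors' own test of PDP against control. Depth per library is unknown.

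Peaks and genes were placed by their centre, with 1 entry per gene ID, in bins of 5 Mb from base 1 (a last bin of at least 2.5 Mb was kept, bins with neither peak nor gene were left out). Chromosome length was the end of the last peak or locus. Loci are those of the 3 h RNA table, and 33977 of 55061 gene IDs matched a name in RefSeq GRCh38.p14, whose patches leave chromosome coordinates as they are. Because no centromeres were given, arms were split at the longest stretch without loci. The planned split at its middle is an alternative. Named by rule were the 10 densest bins, the 5 sparsest with at least 10 genes, the 5 with most and the 5 with fewest peaks per gene (at least 20 genes), the 2 genes with most peaks in each dense bin, the leading gene of each autosome, the 5 longest runs and the gene clusters. Genes were alone in their locus. Members and lists were chosen with earlier results of these data known. Numbers in peak names, promoter windows, distances to starts, step classes, density changes and lengths without the locus-free stretch were added after seeing the data, and MEIS3 and the printed promoters were picked by their values. With 1 merged list, no test was run. Steps were tested on simulated data. Alternatives were other bin sizes, the peaks at or above the median score, distinct loci, merged peaks, other distances and a stricter q-value. Matplotlib 3.10.9, SciPy 1.17.1, NumPy 2.4.6 and pandas 2.3.3 ran under Python 3.11.15.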

Additional observations from a re-analysis of the deposited data

How the results depend on the processing

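No paired analysis was possible because the deposited files hold 1 merged peak list and pooled FPKM values, so the replicate numbers of the labels name no column, and no replicate could be left out. Of 48 alternatives, 30 stayed within the 95% interval of the reported value, 18 moved outside it and 0 reversed. For this count, intervals of rho came from Fisher's z and those of variance over mean from the chi-square distribution. Both treat bins as independent, which they are not. Differences in called shares had normal approximations. The 30 include the 3 h difference at q under 0.01, which was 0 with an interval of no width. The rho of peaks and genes over bins was 0.630 with genes of at least 1 FPKM. The ratio of chromosome 20 to 13 (2.2, 2.04 to 2.38) was 1.89 over occupied 1 Mb bins, 1.92 without the longest stretches lacking loci and 2.62 for peaks at or above the median score. The variance over the mean depends on bin size by construction (6.66 at 1 Mb, 39.7 at 10 Mb), and was 20.8 for peaks at or above the median score, which are fewer. Steps within the distance made up 19% at 10 kb, 6.93% at 5 kb, 37% at 20 kb and 12.7% at 10 kb for peaks at or above the median score. The rho of density and score was 0.285 in bins of 1 Mb and 0.493 in bins of 10 Mb. Contrasts along chromosomes widened for peaks at or above the median score: 2.98-fold between the arms of chromosome 18, 2.48-fold between those of chromosome 9, and 7.39-fold between the stretches of chromosome 18. The deficit of steps from 2 to 5 kb narrowed there from 0.780 to 0.905, and the ratio from 5 to 10 kb went from 1.32 to 1.36. Promoters with any overlap made up 0.554%, against a reference of 1.51%. The causes were not tested. The share called at 72 h was higher in the densest than in the sparsest quartile under all 3 alternatives, by 2.54 to 3.60 percentage points.

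With 1 merged list there is no spread between libraries, so differences can be set against counting error alone. Scores have no unit and depth is unknown, so a sparse region cannot be told from one with fewer reads.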

Other observations

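Outside the autosomes the list held 2951 peaks on chromosome X, 2 on chromosome Y, 1 on the mitochondrial genome and 64 on other sequences. The highest score of the list was that of the mitochondrial peak (7301.7, at 212 to 766). The 3 highest autosomal scores, 1538.4, 416.65 and 289.75, stood close together on chromosome 21, from 8219803 to 8420653. The peak of score 416.65 overlaps a locus with RNA5-8S5, a 5.8S ribosomal RNA gene, and pRNA. The next was on chromosome 2 (242.15, at 32916116 to 32916518, in a locus with LINC00486). These places were chosen after their values were seen.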
